A study of Homo sapiens with 9 samples.

Results

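The AP-1 transcription factor genes and immediate early genes measured here are FOS, FOSB, FOSL1, FOSL2, JUN, JUNB, JUND, EGR1, IER2 and ATF3. They were found in the deposited expression table by gene symbol, and all 10 are among its 19930 genes. The data are RNA sequencing (RNA-seq) of cells labelled MDA-MB-453, a line established from human breast cancer, that had been transfected with small interfering RNA (siRNA) 48 h earlier. There were 3 groups of 3 libraries: si-NC, the control siRNA with no intended target, and si-LINC00673-1 and si-LINC00673-2, a pair of siRNAs against the long noncoding RNA LINC00673. All 9 libraries came from cells treated with the same transfection reagent, and the comparison asks how expression differs when the transcript is depleted in this line. LINC00673 itself was not analysed here, so the depth of the knockdown in these libraries is not given.

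AP-1 is a dimer of leucine zipper proteins, made of a JUN family member with a FOS family member, with another JUN protein or with a relative such as ATF3. FOS and its relatives cannot pair with themselves, whereas JUN proteins can. Immediate early genes are transcribed within minutes of a growth factor or stress signal without new protein synthesis, through serum response factor with its ternary complex partners and through CREB and ATF proteins, and many of their mRNAs are short-lived. In breast epithelial tumor cells, FOSL1 is known for its part in invasive growth.

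Values are FPKM, fragments per kilobase of transcript and per M mapped fragments, where M is mega. Fold changes were taken on the scale of log2(FPKM + 1), which understates the change of low genes, and were tested with limma, a linear model fitted over the 12884 genes that averaged at least 1 FPKM. A gene is called changed here at a fold change of at least 1.3, which is 0.38 on the log2 scale, with an unadjusted P of at most 0.05, the thresholds of the study. Adjusted P values are Benjamini-Hochberg values over all tested genes. All 10 members passed the filter. The labels do not say whether the 3 libraries of a group came from separate cultures, so each P measures only the spread between libraries. An exact permutation test of 3 against 3 libraries cannot give a two-sided P below 0.1, so no such P is given.

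Depth was similar across the libraries, at 23.5 to 27.3 M fragments as read from the spacing of low FPKM values. The keratins KRT8 (3011 to 3773 FPKM) and KRT18 (1680 to 2509 FPKM) and the epithelial adhesion gene EPCAM (287 to 330 FPKM) were high in every library. ERBB2 lay between 11.8 and 17.8 FPKM and FGFR4 between 17.9 and 33.1 FPKM. FOXA1, a luminal transcription factor gene, was listed at 0 FPKM in 7 of the 9 libraries with a highest value of 0.04, and GATA3, another, was between 0.41 and 0.88 FPKM. These 2 luminal markers therefore go against the label, and the cells are called by their label only. The 8 cell line markers summed to 6140 to 6621 FPKM in the si-NC libraries, 5054 to 5555 in those of si-LINC00673-1 and 5148 to 5601 in those of si-LINC00673-2. The 8 markers of blood, endothelial, stromal, fat, basal and estrogen receptor-positive cells summed to 4.10 to 4.92, 5.98 to 6.48 and 6.08 to 7.90 FPKM, nearly all of it COL1A1 (3.49 to 7.08 FPKM), and PTPRC and COL3A1 reached at most 0.07 and 0.03 FPKM. The part of these marker differences in the results below was not tested. In bulk RNA, more cells of a kind and more RNA per cell cannot be told apart.

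Short stretches upstream of the transcription start are shown for FOS, FOSB, FOSL2, JUN, ATF3 and EGR1. They were picked because they hold matches to the signal-responsive elements by which this gene class is known, and the promoters of JUNB and IER2 and the second of ATF3, which hold none of the marked letters, are not shown. JUND holds such matches too, but they are spread over a longer stretch, and it is not shown either. Neither JUND nor EGR1, which is shown, was called with either siRNA. The stretches are RefSeq sequences on GRCh38.p14, read 5′ to 3′ on the gene's own strand, within the 250 bases before the start. Capitals mark TGACGT, the core of a cAMP response element, or its reverse complement in FOS, FOSB, FOSL2 and EGR1, the letters TGANNTCA (an ATF/CRE-type site) in JUN and ATF3, and the CArG box bound by serum response factor in EGR1. The positions are chr14:75278749-75278784 (plus strand) for FOS, chr19:45467921-45467956 (plus) for FOSB, chr2:28392777-28392812 (plus) for FOSL2, chr1:58784092-58784129 (minus) for JUN, chr1:212565269-212565306 (plus) for the first ATF3 promoter and chr5:138465328-138465432 (plus) for EGR1.
FOS: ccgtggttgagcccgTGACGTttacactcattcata
FOSB: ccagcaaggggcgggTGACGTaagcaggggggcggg
FOSL2: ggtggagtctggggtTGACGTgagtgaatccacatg
JUN: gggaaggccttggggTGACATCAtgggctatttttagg
ATF3 promoter 1: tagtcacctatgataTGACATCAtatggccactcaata
EGR1: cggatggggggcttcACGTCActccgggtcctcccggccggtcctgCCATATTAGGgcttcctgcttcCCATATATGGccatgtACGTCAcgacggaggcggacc

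RefSeq gave promoters for 9 of the 10 members, with a pair for ATF3, and FOSL1 was not matched. On either strand, TGACGT was in 5 of these 10 promoters (FOS, FOSB, FOSL2, JUND and EGR1) and in 7.10% of all 35116 promoters of the same length. It lay 64 to 59 bases before the start of FOS, 60 to 55 before that of FOSB and 66 to 61 before that of FOSL2. The letters TGANNTCA were in 3 (JUN, JUND and the first ATF3 promoter) against 10.1% of all promoters, with TGACATCA 67 to 60 bases before the start of JUN and 123 to 116 bases before that of ATF3. A TGANNTCA match can hold a TGACGT match inside it, as in JUND. The CArG box was in EGR1 only among these promoters, at 2 places, and in 1.16% of all promoters. The letters TGANTCA, the AP-1 site itself, were in 0 of the 10 and in 6.57% of all. TATAAA was in 4 (FOS, FOSB, JUNB and the second ATF3 promoter) against 10.7%. These are matches of letters in a fixed window and not measured binding.

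In the si-NC libraries the members spanned the middle to the top of the range of all genes. IER2 was the highest with a mean of 94.9 FPKM, followed by FOSL1 with 88.5, EGR1 with 75.3, JUN with 59.5, JUNB with 56.4, JUND with 32.2, FOSL2 with 25.0, FOS with 16.8, ATF3 with 7.01 and FOSB with 3.24 FPKM. IER2 and FOSL1 overlapped between libraries, as did JUN and JUNB, whereas the other neighbours in this order were apart. IER2 stood at percentile 96.7 and FOSB at percentile 49.3 of all genes in the table. With si-LINC00673-1 FOSL1 was first with 133.6 FPKM and JUN next with 119.8. In the si-LINC00673-2 libraries JUN was first with 244.5 FPKM and FOSL1 next with 155.1, with no overlap between them. There, IER2 overlapped with EGR1, EGR1 with JUNB, and FOSL2 with FOS.

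**Figure D1:**
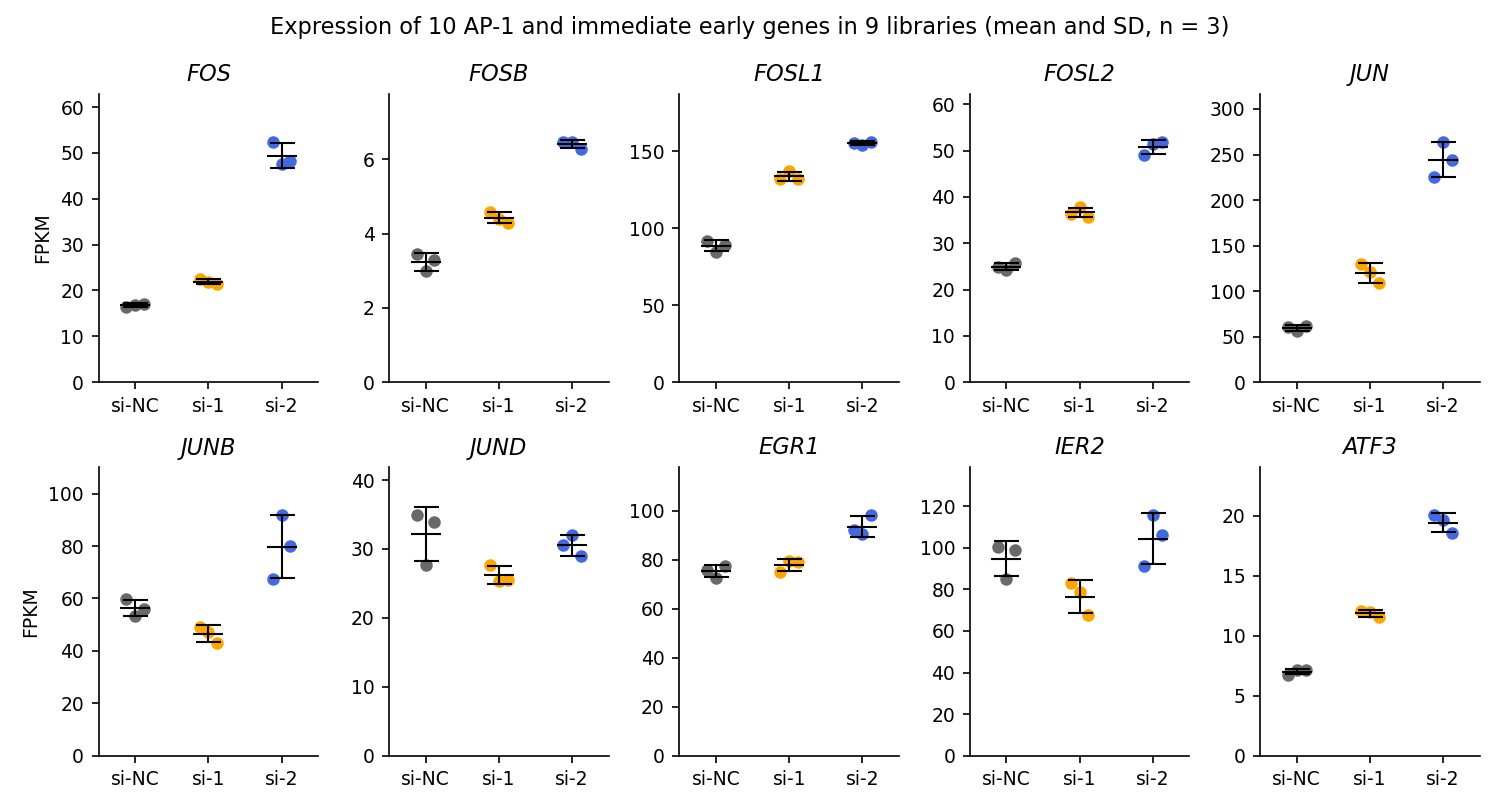
FPKM (vertical axes, each from 0) of the 10 members in each library (points) of si-NC (grey), si-LINC00673-1 (si-1, orange) and si-LINC00673-2 (si-2, blue), with the mean and SD of 3 libraries in black. FOS, FOSB, FOSL1, FOSL2, JUN and ATF3 step up from si-NC to si-1 to si-2 with no overlap, whereas JUNB and IER2 are lowest with si-1 and highest by mean with si-2.

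JUN, FOSL1, FOSL2 and ATF3 were called higher with both siRNAs, and FOS, FOSB and JUNB with si-LINC00673-2 only. FOS and FOSB were also above si-NC with si-LINC00673-1, at ratios of means of 1.31 and 1.37. On the log2(FPKM + 1) scale both stayed under the fold limit. With si-LINC00673-1, 4 of the 10 members were called higher and 0 lower. Among all tested genes 26.7% were called, 11.1% higher and 15.6% lower. The median log2 fold change was 0.36 over the members and 0.0032 over all tested genes. With si-LINC00673-2, 7 of the 10 were called higher and 0 lower, where 34.0% of all tested genes were called, 11.0% higher and 23.1% lower, and the medians were 0.80 and -0.095. By limma, 9 of the 10 members had an unadjusted P of at most 0.05 with si-LINC00673-1, 3 of them with lower values. The same P was reached by 8724 of the 12884 tested genes, 4358 with higher and 4366 with lower values. Dividing each library by its median ratio to the mean library left 0 members called lower in either comparison. Libraries of the groups did not overlap for 8 members with either siRNA, but this was so for 70.0% and 73.0% of all tested genes and is close to that background. The comparisons share their si-NC libraries.

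The direct comparison of the siRNAs gave 7 of 10 members called higher with si-LINC00673-2 and 0 lower. In that comparison 7.64% of all tested genes were called, 2.19% higher and 5.45% lower, and the median was 0.46 over the members and -0.081 over all genes. All 10 members had higher values in each si-LINC00673-2 library than in each si-LINC00673-1 library. Groups did not overlap, in one direction or the other, for 53.7% of all tested genes. The split of calls over all genes depended on the scaling of the libraries. Of the called genes, 67.8% were lower with si-LINC00673-2 against si-NC, and 53.2% after division by the median ratio. Between the siRNAs 71.3% of the called genes were lower, and 38.0% after that division. After correction for GC content these shares were 48.7% and 42.7%, and the share for si-LINC00673-1 against si-NC went from 58.3% to 50.1%. The members called did not turn in direction under either.

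**Figure D2:**
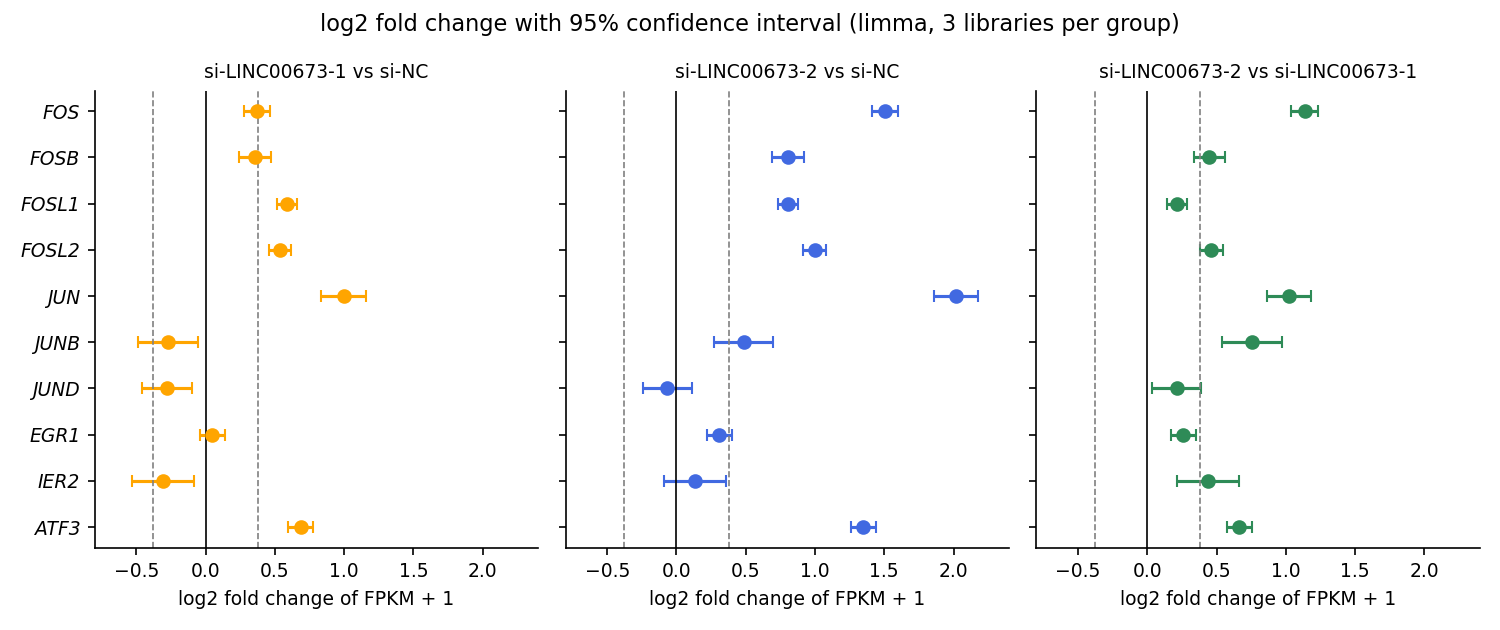
Log2 fold change of FPKM + 1 (horizontal axes) of each member for the 3 comparisons, with 95% confidence intervals from limma; the dashed lines mark a fold of 1.3 in either direction. JUN lies at 1.0, 2.02 and 1.02, whereas JUND lies at -0.28, -0.07 and 0.21, inside the dashed lines in each panel.

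Of the JUN family, JUN changed most. JUN encodes c-Jun, the principal activating partner in AP-1, and lies at chr1:59246463-59249785 on the minus strand, with 1 transcript in the deposited table. Gene positions are those of that table (GRCh37) and on the plus strand unless stated. Its FPKM was 60.40, 56.27 and 61.71 in the si-NC libraries, 129.85, 121.03 and 108.64 with si-LINC00673-1 and 225.25, 264.18 and 244.09 with si-LINC00673-2. The lowest library of each group was well above the highest of the group before it. The ratio of means to si-NC was 2.01 and 4.11. The log2 fold change was 1.0 ± 0.072 (SE) with an adjusted P of 1.9e-06 by limma for si-LINC00673-1 and 2.02 ± 0.072 with an adjusted P of 1.3e-08 for si-LINC00673-2, and it was 1.02 ± 0.072 between the siRNAs (adjusted P of 1.2e-05). JUN was the only member with a fold of about 2 against si-NC for the first siRNA.

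JUNB, a JUN protein that activates more weakly and can oppose c-Jun, was lower than si-NC with the first siRNA and higher with the second, a contrast that was lost after correction for GC content, where JUNB had 0.15 and 0.93. The gene lies at chr19:12902310-12904125. In the si-NC libraries JUNB had 59.78, 53.46 and 55.87 FPKM, in those of si-LINC00673-1 49.19, 47.33 and 43.02, and in those of si-LINC00673-2 67.49, 91.79 and 80.05. The 3 groups were apart, and the spread was widest with si-LINC00673-2 (SD of 12.2 FPKM). With si-LINC00673-1 the log2 value was -0.27 (95% interval -0.49 to -0.057, adjusted P of 0.031 by limma), under the fold limit and not called. JUNB rose with si-LINC00673-2 by 0.48 (0.27 to 0.70, adjusted P of 0.0012) and was higher with it than with si-LINC00673-1 by 0.76 (adjusted P of 0.00031).

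JUND, the JUN protein that is usually present in resting cells, gave no called difference. It lies at chr19:18390504-18392466 on the minus strand. Its FPKM was 34.91, 27.60 and 33.93 with si-NC, 27.72, 25.41 and 25.50 with si-LINC00673-1, and 30.61, 31.98 and 29 with si-LINC00673-2. The si-NC library labelled r1 was low, and both siRNA groups overlapped with si-NC. The log2 difference was -0.28 (-0.46 to -0.10, adjusted P of 0.011 by limma) for the first siRNA and -0.07 (-0.24 to 0.11, adjusted P of 0.48) for the second. Without that si-NC library the first value was -0.38 and was called, and IER2 was then called at -0.38 too.

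Among the FOS family, FOS itself differed most between the siRNAs. FOS encodes c-Fos, the founding immediate early partner of c-Jun, and lies at chr14:75745481-75748937. With si-NC it had 16.33, 16.87 and 17.15 FPKM, with si-LINC00673-1 22.48, 21.84 and 21.51, and with si-LINC00673-2 52.46, 47.60 and 48.23. The groups were apart, with a narrow spread in each. The ratio of means was 1.31 for the first siRNA and 2.95 for the second. On the log2(FPKM + 1) scale the first value, 0.37 ± 0.042 (adjusted P of 3.6e-05 by limma), fell just short of the fold limit and was not called, while FOS rose with si-LINC00673-2 by 1.5 ± 0.042 (adjusted P of 2.6e-09). With 0.1 FPKM added in place of 1, FOS reached 0.39 and FOSB 0.44 with the first siRNA, and both were then called. The log2 difference of FOS between the siRNAs was 1.14 ± 0.042 (adjusted P of 2.6e-07).

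FOSB was the lowest member and followed the same order. It encodes a FOS relative that also has a shorter form lacking part of the activation domain, which gene-level values do not separate, and lies at chr19:45971253-45978437 with 3 transcripts in the table. FOSB had 3.46, 2.99 and 3.28 FPKM with si-NC, 4.59, 4.40 and 4.30 with si-LINC00673-1, and 6.48, 6.46 and 6.28 with si-LINC00673-2. These values correspond to about 416 to 879 fragments per library, so counting error was small against the steps between groups. The log2 difference of 0.36 ± 0.051 (adjusted P of 0.00017 by limma) with the first siRNA was under the fold limit. FOSB rose with the second by 0.80 ± 0.051 (adjusted P of 5.4e-07) and stood 0.45 higher with it than with the first (adjusted P of 0.00017).

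FOSL1 and FOSL2 encode Fra-1 and Fra-2, FOS relatives without a strong activation domain that accumulate later and last longer than c-Fos. FOSL1, at chr11:65659607-65667997 on the minus strand, had 91.67, 84.75 and 89.19 FPKM with si-NC, 131.74, 136.98 and 132.19 with si-LINC00673-1, and 155.31, 153.77 and 156.25 with si-LINC00673-2. FOSL2, at chr2:28615779-28637516, had 24.85, 24.21 and 25.78, then 36.35, 37.78 and 35.76, then 49.11, 51.52 and 51.93 FPKM in the same groups. Neither gene overlapped between any groups. FOSL1 rose by 0.59 ± 0.033 and 0.80 ± 0.033 (adjusted P of 3.9e-07 and 2.9e-08 by limma) and FOSL2 by 0.54 ± 0.037 and 1.0 ± 0.037 (adjusted P of 1.5e-06 and 1.7e-08). Between the siRNAs FOSL2 was called at 0.46 (adjusted P of 2.4e-05), whereas FOSL1 had a log2 difference of 0.21 (0.14 to 0.29, adjusted P of 0.00079), under the fold limit.

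FPKM are per length and can be added within a family, although mRNA levels say nothing of protein or of which dimers form. The FOS family summed to a mean of 133.5 FPKM with si-NC (128.8 to 136.3), 196.6 with si-LINC00673-1 (193.8 to 201.0) and 261.8 with si-LINC00673-2 (259.4 to 263.4). FOSL1 made up 66.3%, 68.0% and 59.2% of this sum, FOS 12.6%, 11.2% and 18.9%, FOSL2 18.7%, 18.6% and 19.4%, and FOSB 2.43%, 2.25% and 2.45%. FOSL1 was thus the main FOS family transcript in every library. The JUN family summed to 148.0 FPKM (137.3 to 155.1), 192.6 (177.2 to 206.8) and 354.8 (323.4 to 388.0). With si-NC, JUN at 40.2% and JUNB at 38.1% had near-equal parts. JUN then made up 62.2% with the first siRNA and 69.0% with the second, JUNB 24.2% and 22.4%, and JUND went from 21.7% to 13.6% and 8.64%. The ranges of the JUN share did not overlap between the groups (38.9% to 41.0%, 61.3% to 62.8% and 68.1% to 69.7%).

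**Figure D3:**
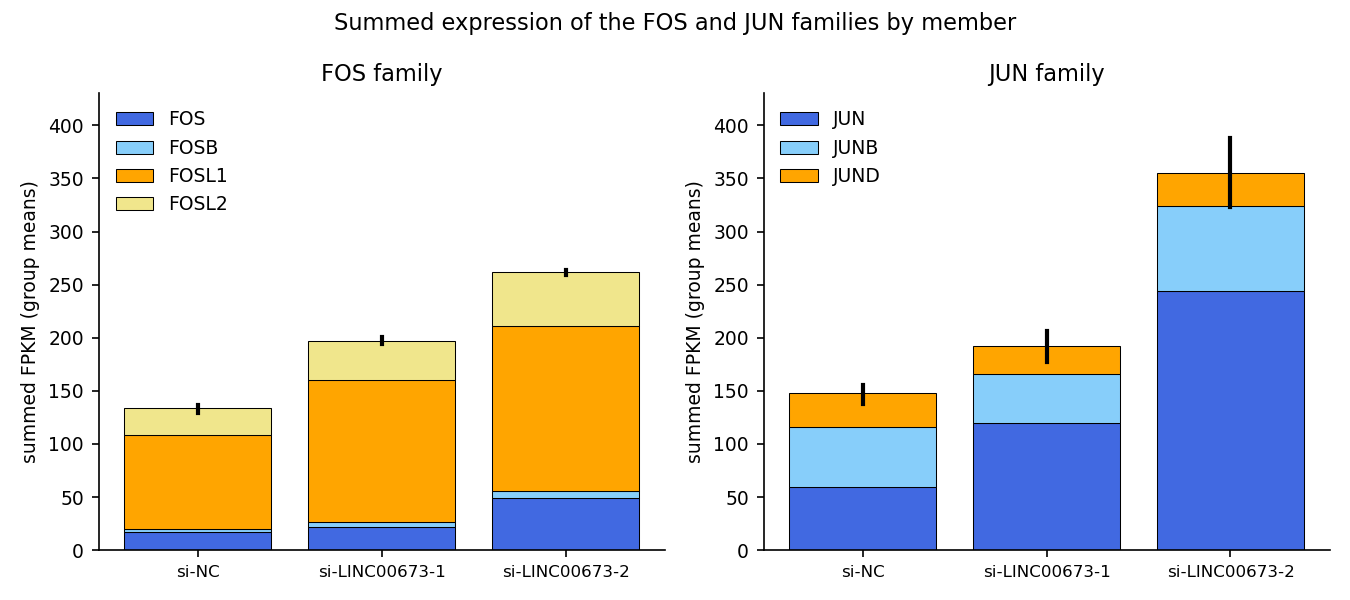
Mean FPKM of each member stacked within the FOS family (left) and the JUN family (right) for the 3 groups; the vertical axis is summed FPKM, and the black line at the top of each bar spans the lowest and highest summed value of 3 libraries. FOSL1 fills most of each FOS family bar, and JUN grows from 40.2% to 69.0% of the JUN family bar.

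ATF3, a CREB/ATF family member induced by stress that pairs with JUN proteins, rose with both siRNAs. It lies at chr1:212738676-212794119, with 7 transcripts in the table. ATF3 had 6.74, 7.17 and 7.11 FPKM with si-NC, 12.09, 12 and 11.55 with si-LINC00673-1, and 20.04, 19.65 and 18.57 with si-LINC00673-2. The groups were apart and the ratios of means were 1.70 and 2.77. The log2 fold changes were 0.69 ± 0.041 (adjusted P of 6.7e-07 by limma) and 1.35 ± 0.041 (adjusted P of 4.9e-09), and ATF3 stood 0.66 higher with the second siRNA than with the first (adjusted P of 6.2e-06).

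EGR1 and IER2, which are no AP-1 subunits, were not called with either siRNA. EGR1 encodes a zinc finger transcription factor that is a classical target of serum response factor, and lies at chr5:137801181-137805004. It had 75.92, 72.60 and 77.37 FPKM with si-NC, 74.90, 79.42 and 79.06 with si-LINC00673-1, and 91.86, 90.36 and 98.12 with si-LINC00673-2. The first siRNA group overlapped with si-NC and the second was above it. The log2 difference was 0.05 (-0.044 to 0.14, adjusted P of 0.34 by limma) and then 0.31 (0.22 to 0.40, adjusted P of 7.5e-05), the latter under the fold limit. EGR1 was called with si-LINC00673-2 after division by the median ratio, at 0.41, and after correction for GC content, at 0.44. Its log2 difference between the siRNAs, 0.26 (adjusted P of 0.00085), was not called.

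IER2 encodes a small nuclear protein induced with the first wave of immediate early genes, and lies at chr19:13261282-13265722. IER2 had 100.49, 85.17 and 98.96 FPKM with si-NC, 83.19, 78.65 and 67.82 with si-LINC00673-1, and 91.24, 115.76 and 106.35 with si-LINC00673-2. The first group lay below si-NC and the second overlapped with it. The log2 difference was -0.31 (-0.53 to -0.084, adjusted P of 0.021 by limma) and 0.13 (-0.089 to 0.36, adjusted P of 0.25), neither called. Between the siRNAs IER2 was called higher with the second by 0.44 ± 0.10 (adjusted P of 0.0061), and this call was lost without si-LINC00673-1 library r2 (0.36, adjusted P of 0.023) or without si-LINC00673-2 library r1 (also 0.36, adjusted P of 0.023).

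GC content of the transcripts moved with the fold changes. In the top one of 5 equal classes of tested genes by GC content (58.6% to 73.9%) the first siRNA had a median log2 fold change of -0.29 and the second of -0.34, against 0.084 and -0.05 in the lowest class. JUND (69.7% GC), JUNB (64.9%), IER2 (61.7%) and FOSL1 (60.0%) lie in that top class. With a smooth GC trend taken out of each library, 5 of the 10 members were called with the first siRNA and all 10 with the second, each higher. Of the 11190 genes covered by this correction, 11.2% were called higher and 11.2% lower with the first siRNA. With the second, 15.3% were called higher and 14.5% lower. JUND then had a log2 difference of 0.37 and 0.55, JUNB of 0.15 and 0.93, and IER2 of -0.04 and 0.45 for the first and second siRNA. The values of JUND for both siRNAs, and that of JUNB for the first, thus changed sign. JUN (1.09 and 2.18), FOS (0.37 and 1.58), FOSL2 (0.55 and 1.09) and ATF3 (0.63 and 1.39) moved little, and FOSL1 went to 0.79 and 1.06. The part of GC content in the levels of these genes was not tested further.

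**Figure D4:**
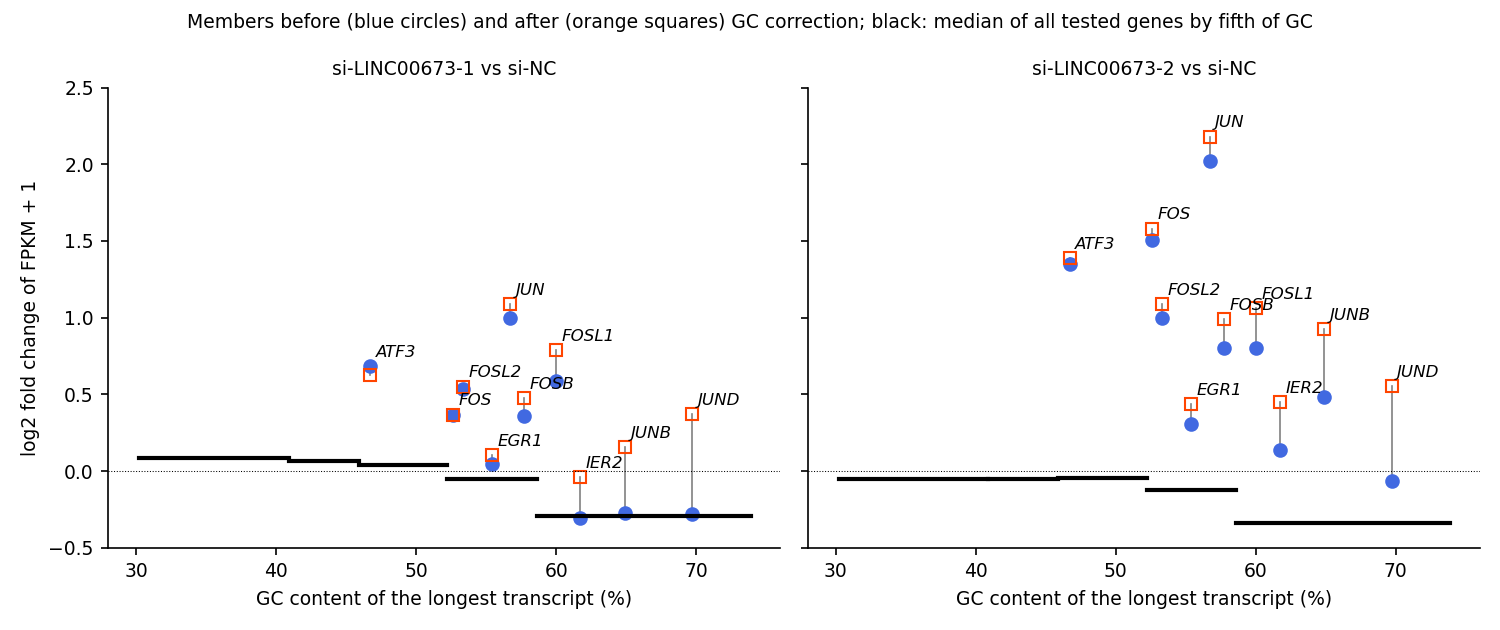
Log2 fold change of FPKM + 1 (vertical axis) of each member against the GC content of its longest transcript in percent, before (blue circles) and after (orange squares) GC correction, for each siRNA against si-NC; black bars are the median over all tested genes in each of 5 GC classes. The 3 members above 61% GC move most on correction, whereas ATF3, FOS and FOSL2 barely move.

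The other members of the pathway were read from 6 lists drawn up from textbook knowledge of these genes. Of 38 other immediate early genes, 34 were tested. With si-LINC00673-1 17 rose and 2 fell (median log2 fold change of 0.38), and with si-LINC00673-2 22 rose and 2 fell (median 0.68), beside the 11.1% and 11.0% of all tested genes that rose. All 17 that rose with the first siRNA also rose with the second. DUSP1, a phosphatase that inactivates MAP kinases, went from a mean of 8.01 ± 0.68 FPKM (SD, n = 3) with si-NC to 19.0 ± 0.86 and 53.7 ± 3.8, a log2 change of 1.15 and 2.60. ZFP36, whose protein binds AU-rich elements of short-lived mRNAs and promotes their decay, went from 41.1 ± 1.2 FPKM to 89.3 ± 1.3 and 155.0 ± 6.0 (1.10 and 1.89). DUSP5, a nuclear MAP kinase phosphatase gene, rose by 1.18 and 1.76 and GADD45B, which encodes a stress-induced protein that binds kinases of the MAP kinase cascades, by 0.59 and 1.91. The adjusted P of these 4 genes was at most 4.6e-05 by limma. The exceptions that fell, picked out after their values were seen, were IER5L (-0.80 and -0.39), IER5 with the first siRNA (-0.46) and DUSP6 with the second (-0.40). After division by the median ratio 0 of the 34 fell with the second siRNA.

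A list of 24 known AP-1 target genes, drawn up with other results of these libraries known, had 15 genes above the expression filter, of which 10 rose with si-LINC00673-1 and 9 with si-LINC00673-2, 8 of them with both, and 0 fell, beside the same background. The medians were 0.60 and 0.55. PLAU, which encodes urokinase, rose from 15.5 ± 0.42 FPKM (SD, n = 3) to 47.3 ± 0.18 and 46.5 ± 1.0, a log2 change of 1.55 and 1.53 with a difference of -0.02 between the siRNAs (adjusted P of 0.55 by limma). PLAUR, the urokinase receptor gene, rose by 0.84 and 1.14 (adjusted P of 1.4e-07 and 1.2e-08), AREG, an EGF receptor ligand gene, by 0.94 and 1.49, and CXCL8, which encodes interleukin 8, by 0.93 and 1.18. Between the siRNAs 2 of the 15 were called, AREG by 0.55 and VEGFA, picked out after its value was seen, by 0.38.

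Of 14 activators of immediate early genes 1 rose with each siRNA, beside 11.1% and 11.0% of all tested genes, and it was the same gene, ELK3, a ternary complex factor that can repress as well as activate, by 0.53 and 0.62 (adjusted P of 4.8e-06 and 1.2e-06 by limma). SRF, the serum response factor gene, had 8.97 ± 0.27, 10.6 ± 0.36 and 11.3 ± 0.69 FPKM (SD, n = 3) in the 3 groups, a log2 difference of 0.22 and 0.30 that stayed under the fold limit. SRF was called with the second siRNA after division by the median ratio (0.40) and with both after GC correction (0.45 and 0.59). CREB1 had -0.08 and 0.01 (adjusted P of 0.32 and 0.92). With the first siRNA 0 of the 14 fell, and with the second 3 fell, where 23.1% of all tested genes fell, CRTC1 (-0.47), ATF1 (-0.41) and MKL2 (-0.41), which were picked out after their values were seen. After division by the median ratio 2 of the 14 rose and 1 fell with the second siRNA, and after GC correction, which covers 12 of them, 2 rose with the first and 3 with the second and 0 fell with either.

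Among 24 tested kinases of the MAP kinase cascades 0 rose with either siRNA, 6 fell with the first and 7 with the second, and 5 fell with both. The shares of all tested genes that fell were 15.6% and 23.1%, so the kinase counts lie not far from that background. The list medians were -0.12 and -0.19. MAP2K6, a kinase that activates p38, went from 7.09 ± 1.2 FPKM (SD, n = 3) to 2.22 ± 0.10 and 1.95 ± 0.075, a log2 change of -1.32 and -1.45 (adjusted P of 1.8e-06 and 6.5e-07 by limma). MAPK12 and MAPK11, which encode p38 gamma and p38 beta, fell by 0.86 and 0.70 with the first siRNA and by 1.03 and 0.87 with the second. MAP2K5, the kinase upstream of ERK5, fell by 0.45 and 0.62. MAPK3, an ERK gene, had -0.23 and -0.25, and MAPK8, which encodes the JUN kinase JNK1, had -0.02 and -0.15, with no call among them. The kinase counts depended on the processing: 2 rose and 4 fell with the second siRNA after division by the median ratio, and after GC correction 3 fell with the first siRNA and 4 with the second, with 1 that rose in each. MAPK11 was then not called with the first siRNA (-0.37), and MAPK12 stood at -0.41 and -0.58.

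Of the 8 AP-1 dimer partners tested, 1 rose and 2 fell with the first siRNA and 2 rose and 1 fell with the second, numbers too small to set against the shares of all genes. BATF2 and JDP2 changed with both siRNAs and in opposite directions. BATF2, an interferon-inducible leucine zipper gene, rose by 0.77 and 1.20 from 1.44 FPKM, and JDP2, a partner of JUN that represses AP-1 sites, fell by 0.79 and 1.12 from 2.79 FPKM (adjusted P of at most 1.3e-05 by limma for each). Both are low in all libraries. The other calls, picked out after their values were seen, were MAFK with the first siRNA (-0.72) and ATF7 with the second (0.38). Of 11 repressors and mRNA turnover factors, 1 rose and 1 fell with the first siRNA and 1 rose and 2 fell with the second. Of all tested genes 11.1% rose and 15.6% fell with the first, and 11.0% rose and 23.1% fell with the second. The counts of this list are close to that background. ZFP36L1, a relative of ZFP36 that also promotes mRNA decay, rose from 108.0 ± 2.0 FPKM (SD, n = 3) to 211.0 ± 2.1 and 255.0 ± 5.6, by 0.95 and 1.23. NAB2, which encodes a corepressor of EGR proteins, fell by 0.54 and 0.65, and RFWD2, picked out after its value was seen, fell by 0.61 with the second siRNA. NAB2 was not called with either siRNA after GC correction (-0.22 and -0.29).

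**Figure D5:**
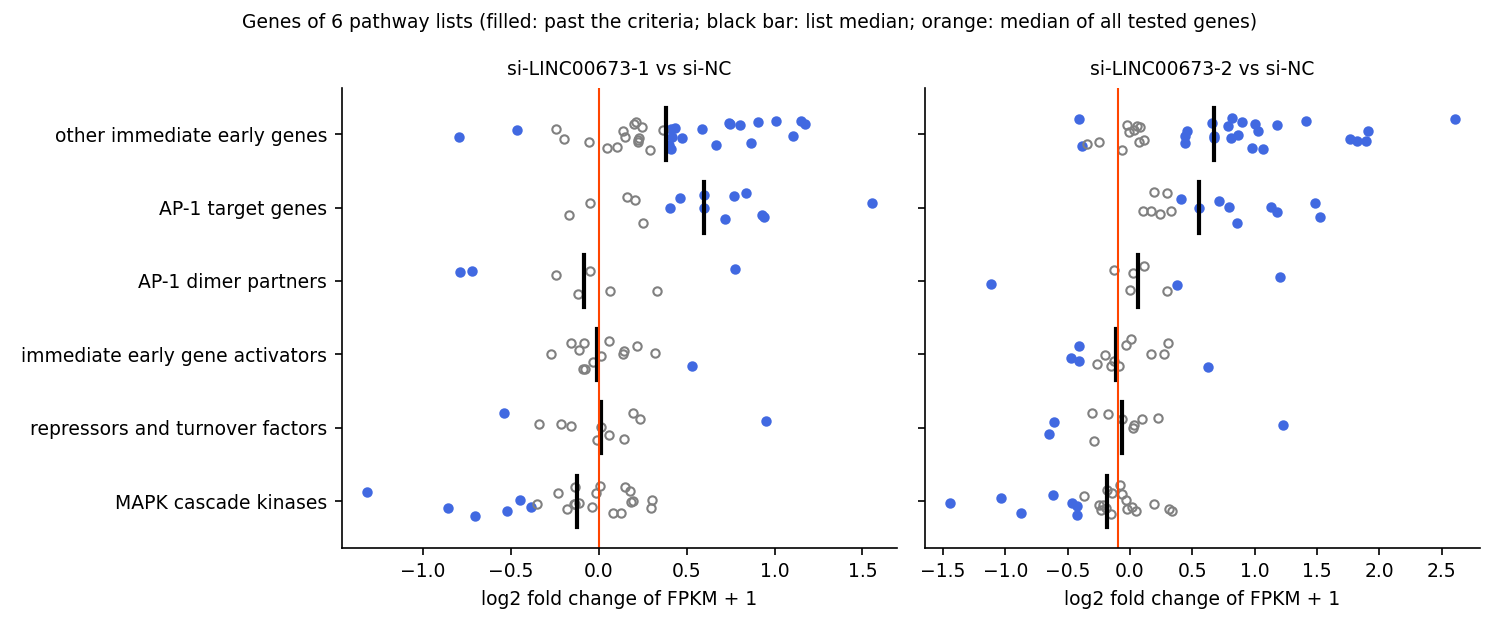
Log2 fold change of FPKM + 1 (horizontal axis) of each tested gene in the 6 pathway lists (rows), with si-LINC00673-1 on the left and si-LINC00673-2 on the right; filled points passed the fold and P limits, black bars are list medians and the orange line is the median of all tested genes. The other immediate early genes (medians 0.38 and 0.68) and AP-1 target genes (0.60 and 0.55) lie to the right of that line, and the kinases (-0.12 and -0.19) do not.

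Genes with the profile most like a member were ranked by the root-mean-square distance between log2(FPKM + 1) values over the 9 libraries, each centred on its own mean. EGR1 was nearest to PRSS3 (0.036), TRAPPC2L (0.046) and CHCHD2 (0.047), which like EGR1 moved little in any group. ATF3 was nearest to ERRFI1 (0.027), DNAJB4 (0.051) and MXD1 (0.068). ERRFI1, which encodes a feedback inhibitor of the EGF receptor, had log2 changes of 0.69 and 1.37 beside 0.69 and 1.35 for ATF3. JUN was nearest to PFKFB3 (0.12), HILPDA (0.12) and PIM1 (0.14), which rose by 1.21, 1.02 and 1.24 with the first siRNA and by 2.02, 1.88 and 1.99 with the second. FOS was nearest to HSPA5 (0.16), HIST1H2AE (0.17) and ANKRD37 (0.18), distances somewhat larger than those for JUN. HSPA5 had log2 changes of 0.73 and 1.54 beside 0.37 and 1.5 for FOS. A small distance describes these 9 libraries and no more.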

How the data were processed

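RNA from cells labelled MDA-MB-453 was sequenced on the BGISEQ-500 platform, with 3 libraries for each of si-NC, si-LINC00673-1 and si-LINC00673-2. Groups follow the library titles, and their numbers were read as the siRNA numbers of the study, which no label states. The authors deposited 1 table of FPKM per gene and library, rounded to 2 decimals and given 2 times with equal values, and 4 lines without values were dropped. Their log2 ratios, P and Q values were not used. The submitters' processing notes name Bowtie2 version 2 and GRCh37.p13. The counting tool and strand setting are not given in the sources used here, so reads of genes that overlap on opposite strands may not be separated. The table holds 17089 known and 2841 predicted genes.

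The test was limma 3.58.1 (lmFit, eBayes with trend) in R 4.3.3 on log2(FPKM + 1), all 9 libraries in 1 fit, and it was tested on simulated data. Tables and figures used Python 3.11.15, pandas 2.3.3, numpy 2.4.6 and matplotlib 3.10.9. GC content is that of the longest GENCODE release 29 transcript of a symbol, found for 16716 known genes. Depth was estimated from the FPKM steps of 130 to 145 genes per library, whose values lay on average 0.056 to 0.08 fragments from whole numbers. Counts were not rebuilt for the test. The fragment numbers given for genes are estimates from FPKM, transcript length and this depth. The squared differences between replicates, over single-transcript genes with few fragments, were 1.17 to 1.66 times those of sampling noise. Each library was counted as 1 sample.

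The members and lists were chosen with earlier results of these data known. Besides the 10 members, the genes named were at most 4 per list that were called one way with each siRNA, taken by mean size of change, SRF, CREB1, MAPK3 and MAPK8, and the 3 nearest profiles of FOS, JUN, EGR1 and ATF3. Alternatives were 0.1 FPKM added, no filter or at least 5 FPKM, other fold limits, an adjusted P, only the libraries compared, the replicate label as a block, scaling by the median ratio, GC correction and each library left out. Some genes of the lists are not reported here.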

Additional observations from a re-analysis of the deposited data

Results flagged for a closer look

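The siRNAs against LINC00673 differed from each other in 7 of the 10 members by the direct limma comparison. Each was higher with si-LINC00673-2 in 3 of 3 libraries than in any si-LINC00673-1 library. In this comparison 7.64% of all tested genes were called, 2.19% higher, and the groups did not overlap, in either direction, for 53.7%. The log2 difference was 1.14 for FOS, 1.02 for JUN, 0.76 for JUNB, 0.66 for ATF3, 0.46 for FOSL2, 0.45 for FOSB and 0.44 for IER2, with adjusted P values from 2.6e-07 to 0.0061. JUNB and IER2 had opposite signs against si-NC for the siRNAs, at -0.27 and 0.48 for JUNB and at -0.31 and 0.13 for IER2. After GC correction JUNB had the same sign for both, at 0.15 and 0.93, and IER2 stood at -0.04 (adjusted P of 0.60 by limma) and 0.45. Both siRNAs are compared with the same si-NC libraries, which do not enter the direct comparison.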

How the results depend on the processing

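Calls rest on a fold limit. With no fold limit 9 members were called with si-LINC00673-1, and 8724, 9396 and 6697 genes were called over all genes for si-LINC00673-1 against si-NC, si-LINC00673-2 against si-NC and the direct comparison, in place of 3436, 4385 and 984. With a fold of at least 2 these counts were 366, 604 and 40 genes and 0, 3 and 2 members. With a mean of at least 5 FPKM required they were 2211, 2714 and 547, from fewer genes tested, and FOSB was not tested. Adding 0.1 FPKM gave 1656 genes in the direct comparison, and GC correction, which covers 11190 genes, gave 571. After GC correction JUND changed sign to 0.37 and 0.55 with the first and second siRNA and JUNB to 0.15 with the first, and median scaling moved JUND to 0.037 with the second. The cause was not tested.

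Leaving out each library in turn gave 4 to 6, 7 to 7 and 6 to 7 members and 3339 to 3592, 4296 to 4464 and 939 to 1117 genes in the 3 comparisons. With si-LINC00673-1, FOSB was also called without the unsuffixed si-NC library (0.39), FOS without si-NC r2 or si-LINC00673-1 r2 (0.38 each), and JUND and IER2, both lower, without si-NC r1. The replicate labels did not pair the libraries, with correlations of deviations between same-numbered libraries from -0.24 to 0.1. A fit with a replicate block called 4, 7 and 7 members and 3449, 4400 and 988 genes. Over all alternatives, 81 of 96 counts stayed within 1.5 times, and 400 of 417 fold changes of single members kept their direction and their side of the limits. Other filters, an adjusted P, only the libraries compared and the replicate block leave the fold change itself unchanged. Its direction was therefore fixed in advance under those alternatives, and the tally is no measure of robustness there. Over single-transcript genes with few fragments, the squared differences between replicates were 1.17 to 1.66 times those of sampling noise. Counting thus makes up much of the spread of those genes. The members have more fragments, from 416 for FOSB to 21267 for JUN in a library, and this ratio does not cover them. The unstated origin of the replicates limits what each P covers.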
